A study of Mus musculus with 12 samples.

Results

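Tumor cells sorted from B16F10 melanomas that had relapsed after immunotherapy were compared with the same cell line growing untreated in a dish, to describe which genes differ between relapsed tumors and culture. B16F10 is a pigmented melanoma line of the C57BL/6 mouse. The comparison uses 6 of the 12 RNA-seq libraries of the series: Tumor 1, Tumor 3 and Tumor 4, whose RNA was extracted as soon as the cells had been sorted, and WT 1, WT 2 and WT 3, untreated cells grown in DMEM. For Tumor, the cells had been injected under the skin of the back of mice, aged 6 weeks by the labels, and left to form tumors before treatment. An older age range and a site above the right flank are given in the study's methods. The labels name the treatment only as immunotherapy. The methods of the study describe injection of anti-CD40, TNFα and an anti-TRP1 antibody into the tumor, as well as transfer of T cells, and they describe digestion of tumors with collagenase IV and DNase I before sorting. The WT cells were neither implanted, treated, digested nor sorted, so growth in the animal, treatment and handling cannot be told apart in this comparison. The other 6 libraries were 3 cell lines regrown from relapsed tumors and 3 libraries, called Lyso, of cultured B16F10 that had been exposed to granules made by T cells. They shared the fit, and with WT they make up the 9 cultured libraries. Nothing in the labels says that the libraries of a group came from separate cultures or animals. The p-values therefore measure the spread between libraries within groups, estimated over all 4 groups of the fit and not over Tumor and WT alone.

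A tumor differs from a dish in ways that reach many gene families. Immediate early genes, such as those of the FOS, JUN and EGR transcription factors, are switched on within minutes of a stimulus without new protein synthesis. Interferon-gamma, secreted by T cells and NK cells, acts through STAT and IRF proteins and raises the genes that load peptides onto MHC molecules. Low oxygen stabilises HIF, which raises glucose transporters and glycolytic enzymes. Fibroblasts, endothelial cells and macrophages live between the tumor cells and make most of the collagen, chemokines and complement of a tumor.

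Counts on genes were 1667398 in WT 1, 2350129 in WT 2 and 16384021 in WT 3, against 3102442, 5049496 and 4317373 in Tumor 1, 3 and 4, so that 3 counts stand for 1.698 CPM in WT 1 and 0.177 CPM in WT 3. Intervals and limits set by counts cover counting error only. Levels are given as CPM, counts scaled to sequencing depth after TMM normalization, in the order WT 1, 2, 3 and Tumor 1, 3, 4. A pair of WT libraries stood apart from their group in ways that touch the results. WT 3 was high in interferon-stimulated genes: Isg15, a ubiquitin-like antiviral protein, was at 5.09, 3.7999 and 48.001 CPM in WT, and Mx1, a GTPase that blocks viruses, at 1.698, 0.422 and 8.31 CPM. WT 1 was high in stress genes and low in the ID genes: Hmox1, which breaks down heme, was at 1585, 119.9 and 179 CPM and Id3 at 13.02, 214 and 160.1 CPM. Counts are therefore also given with WT 1 and WT 2 as the only controls, and with WT 2 and WT 3, where this changes them.

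Of 14924 genes tested, 1278 (8.56%) were higher and 329 (2.20%) lower in Tumor, called at a Benjamini-Hochberg adjusted p under 0.05 in edgeR's quasi-likelihood test and an absolute log2 fold change over 1. With WT 1 and WT 2 as controls, 954 were higher (6.20%) and 211 lower (1.37%), of which 846 and 170 were among the same genes. Of the 1278 and 329 genes, 771 and 125 passed in every fit that left out 1 Tumor or WT library. With only the Tumor and WT libraries in the fit, 899 genes were higher and 230 lower. Without the limit on the fold change 12.1% of the genes were higher and 6.94% lower. Log2 fold changes are given with the standard error (SE) of the fit and the adjusted p. The genes fell into 3 classes by their counts in culture. The first holds genes that every WT library expressed with more than 3 counts: 397 of its 11770 genes were higher (3.37%) and 274 lower (2.33%). These genes took 99.48% ± 0.0783 of the counts in WT and 97.67% ± 0.0943 in Tumor (SD, n = 3). The second holds genes with 3 or fewer counts in each of the 9 cultured libraries. Of these, 320 passed the filter on low counts and 317 were called higher (99.1%), which follows from the class itself, since a gene absent from culture could pass the filter only by being present in Tumor. They took 1.008% ± 0.1055 of the counts in Tumor and 0.03022% ± 0.003856 in WT (SD, n = 3), and 199 of the 317 had no count in any WT library. The remaining 2834 tested genes lay between, with low or uneven counts in WT, and 564 of them were higher (19.9%) and 55 lower (1.94%). The median log2 fold change of the first class was -0.046, the value beside which the medians of gene families are given below.

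**Figure D1:**
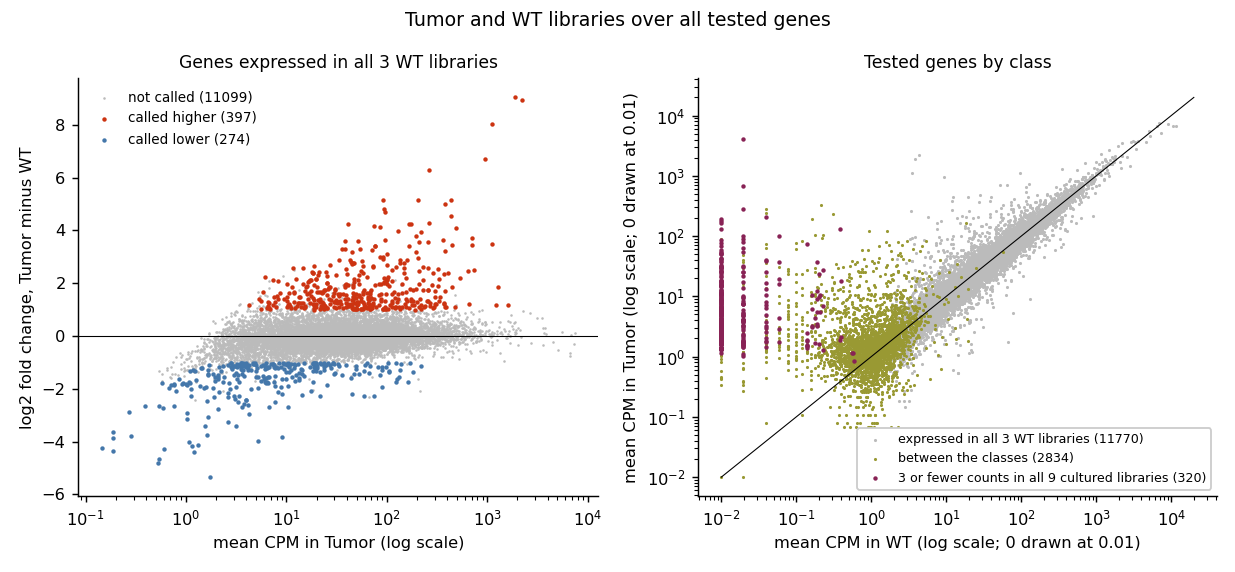
Left, log2 fold change of Tumor over WT against mean CPM in Tumor for the 11770 genes expressed in all 3 WT libraries, with 397 called higher in red and 274 called lower in blue. Right, mean CPM in Tumor against WT for all 14924 tested genes, where the line marks equal levels and the 320 genes with 3 or fewer counts in every cultured library form the columns at the left edge.

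The Tumor libraries expressed melanocyte genes at about the level of culture. Sox10, the lineage transcription factor of neural crest and melanocytes, was at 530.4, 596 and 577 CPM in WT and 566, 557 and 582 CPM in Tumor. Of the 20 melanocyte genes listed, 1 was called higher, the endothelin receptor Ednrb, which was at 0, 0 and 0.236 CPM in WT and 1.95, 1.61 and 0.942 CPM in Tumor, and their summed level was 30644 to 37541 CPM in WT and 28597 to 32698 CPM in Tumor. Tyr, the tyrosinase that starts melanin synthesis, overlapped between the groups (873, 567 and 485 against 853, 892 and 894 CPM). The call of Ednrb was lost without WT 3, Tumor 1 or Tumor 3 (adjusted p up to 0.0809).

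Markers of other cells came with them. Fibroblast markers summed to 50.4, 35.04 and 36.7 CPM in WT and 10753, 8927 and 7763 CPM in Tumor, and 15 of the 15 tested were higher, 7 of them in the class absent from culture, whose calls follow from the class. Among their defining genes, Dpt had 65.7, 80.1 and 93.2 CPM in Tumor and counts of 0, 0 and 1 in WT, Lum had 71.5, 76.1 and 94.2 CPM and Thy1 71.5, 42.3 and 56.7 CPM, and neither Lum nor Thy1 had a count in WT. The collagen genes Col1a1, Col1a2 and Col3a1, also among the fibroblast markers, made up most of their sum in Tumor. Without WT 3, 14 fibroblast markers were called higher. Macrophage markers summed to 16.4, 21.96 and 30.8 CPM in WT and 69.2, 85.1 and 96.04 CPM in Tumor, with 8 of 11 higher, of which 5 were absent from culture. With WT 3 left out, 5 were called, and with WT 1 left out, 10. Endothelial markers showed 8 of 11 higher, 5 of them absent from culture. With WT 3 or Tumor 3 left out, 5 were called, and with WT 1 left out, 9. Their sums overlapped (308 to 447 CPM in WT, 297 to 342 CPM in Tumor) because Eng, which the cultured cells express, made up most of them (281, 326 and 424 CPM in WT). Of 17 T and NK cell markers, 4 were tested and none was called by edgeR or DESeq2. At an unadjusted p under 0.05, 2 were higher, and 1 was called higher without WT 1, Tumor 1 or Tumor 3. The list summed to 6.79, 1.27 and 1.53 CPM in WT and 4.55, 4.43 and 11.1 CPM in Tumor. Cd3e had no count in any Tumor library, and Cd8a was at 0, 0.403 and 0.942 CPM. Neutrophil and keratinocyte markers had no gene that passed the filter on low counts, and their sums in Tumor reached at most 1.65 and 1.65 CPM. Of 5 tested B and plasma cell markers, 3 were higher, but 2 without WT 2 and 1 without WT 3, Tumor 1 or Tumor 4. Their sums were uneven, with 0, 2.11 and 0.531 CPM in WT and 29.3, 2.62 and 35.8 CPM in Tumor 1, 3 and 4. Schwann cell markers, of which all 3 tested are expressed in culture, summed to 136 to 184 CPM in WT and 466, 512 and 321 CPM in Tumor. Of the 3, 1 was called higher, also with any 1 library left out. In RNA from bulk cells, fewer cells of a type and less RNA per cell cannot be told apart.

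**Figure D2:**
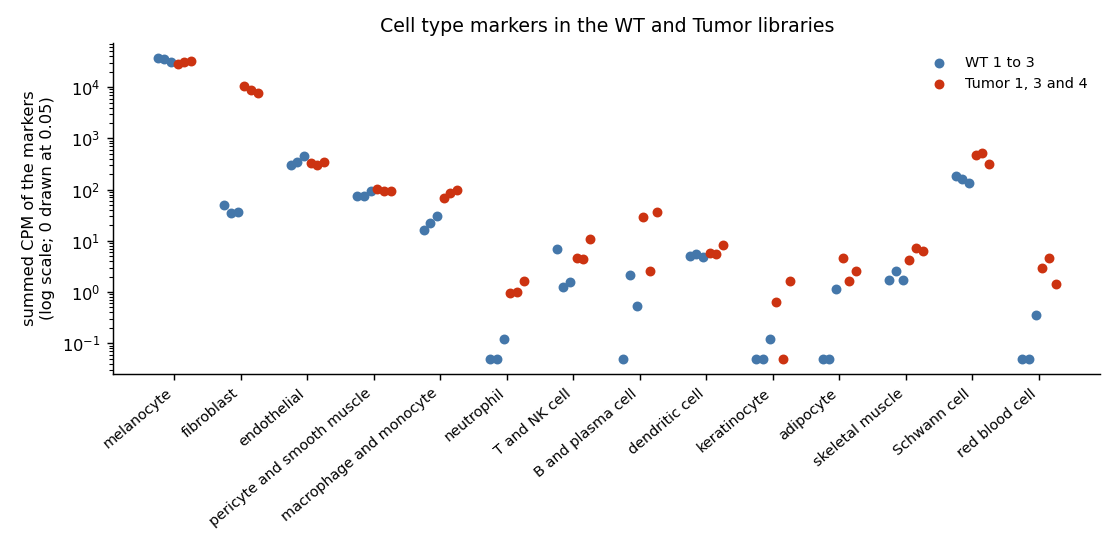
Summed CPM of 14 lists of cell type markers on a log axis, 1 point per library, WT 1 to 3 in blue and Tumor 1, 3 and 4 in red from left to right. Fibroblast markers sum to 7763 to 10753 CPM in Tumor and 35.04 to 50.4 CPM in WT, while melanocyte markers lie near the same level in both groups.

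Among gene families that the cultured cells express, the immediate early genes had the largest median change. Of the 34 tested, 31 were higher and the median of the 27 expressed in WT was 2.94 on the log2 scale, against -0.046 for all expressed genes. The 3 not called, named after their values were seen, were Dusp2, Ccn2 and Rhob. The summed level of the list was 991, 977 and 1272 CPM in WT and 9281, 7525 and 9374 CPM in Tumor. Fos (chromosome 12, 85473890 to 85477273 of GRCm38), a subunit of the AP-1 transcription factor, was at 12.5, 6.33 and 9.38 CPM in WT and 878, 969 and 1032 CPM in Tumor. The groups did not overlap and the log2 fold change was 6.69 (SE 0.64, adjusted p = 1.58e-05). Fosb, its close relative, went from 2.26, 3.38 and 4.95 CPM to 1228, 904 and 1184 CPM, a log2 fold change of 8.04 (SE 0.42, adjusted p = 9.32e-08) and the largest of the 27. Junb, the partner of FOS proteins in AP-1, was at 34.5, 27.4 and 54.4 CPM in WT and 366, 354 and 421 CPM in Tumor (log2 fold change 3.24, SE 0.27, adjusted p = 5.49e-06). Atf3, induced by many kinds of stress, was uneven in WT (63.4, 11.4 and 11.8 CPM, with WT 1 high) and at 162, 113 and 172 CPM in Tumor. The call of Atf3 was lost without WT 2, WT 3 or Tumor 4 (adjusted p up to 0.0881).

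Other members showed the same step with little spread. Klf4 (chromosome 4, 55527143 to 55532466), a zinc finger factor that restrains proliferation in many epithelia, was at 15.8, 8.44 and 11.6 CPM in WT and 394, 312 and 433 CPM in Tumor, a log2 fold change of 5.02 (SE 0.24, adjusted p = 3.62e-08). Nr4a2, an orphan nuclear receptor, was at 4.53, 8.44 and 9.67 CPM and 164, 90.98 and 135 CPM (log2 fold change 3.96, SE 0.27, adjusted p = 7.55e-07). Sik1, a kinase that cAMP induces, rose by 5.16, and Maff, a small MAF protein, by 3.29 on the log2 scale. Some feedback inhibitors of signalling were among the genes called. Dusp1, the phosphatase that switches off MAP kinases, was at 15.3, 14.8 and 16.3 CPM in WT and 152, 154 and 191 CPM in Tumor with the smallest adjusted p of the family (log2 fold change 3.403, SE 0.14, adjusted p = 1.26e-08). Errfi1, which binds and inhibits the EGF receptor, was at 22.1, 18.9996 and 20.4 CPM and 88.4, 86.4 and 106 CPM (log2 fold change 2.19, SE 0.13, adjusted p = 1.99e-07). Spry2, a Sprouty inhibitor of receptor tyrosine kinases, rose by 1.91, and Per1, a clock gene that also answers to acute stimuli, by 2.05. Arrdc3, an arrestin-like adaptor, rose by 2.62. Of the 14 DUSP and Sprouty genes, 2 were higher, Spry2 and Dusp4, and 1 lower, Dusp7, with a median of 0.58. Klf9 and Klf11 were the 2 of 10 tested Krüppel-like factors outside the early gene list that were called, with log2 fold changes of 1.59 and 2.88. The call of Dusp4 was lost without WT 2, WT 3, Tumor 1 or Tumor 4 (adjusted p up to 0.0885), that of Dusp7 without WT 3 (log2 fold change -0.996) and that of Klf9 without WT 3 (adjusted p = 0.0648).

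The chaperones, which cells raise on heat or proteotoxic stress, did not follow. Of 16 tested, 1 was higher, Hspa1a, and 1 lower, Cryab, and the median of the 14 expressed in WT was -0.19, with -0.34 without WT 1 and -0.06 without WT 2. Hspa1b, the paired inducible HSP70 gene, was at 2.83, 2.11 and 8.31 CPM in WT and 10.7, 10.3 and 11.8 CPM in Tumor. Its log2 fold change of 1.01 did not pass (adjusted p = 0.0759), although it did with WT 1 and WT 2 as controls (2.16, adjusted p = 0.0022). Hspa1a and Hspa1b are near-identical, so reads that match both are not in the counts. Warm enzymatic digestion and sorting separate the Tumor libraries from all cultured ones, and their part in the early gene values was not tested. The call of Hspa1a was lost without WT 3, Tumor 3 or Tumor 4 (adjusted p up to 0.0769).

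The sequence before the start of Dusp1 is printed because it is the member with the smallest adjusted p and holds a full cAMP response element (CRE, TGACGTCA, a palindrome that reads the same on both strands), in capitals. The 150 bases end just before the start that RefSeq gives on GRCm38.p6 and are written 5′ to 3′ on the strand of the gene (chr17:26508473-26508622, minus strand).
Dusp1: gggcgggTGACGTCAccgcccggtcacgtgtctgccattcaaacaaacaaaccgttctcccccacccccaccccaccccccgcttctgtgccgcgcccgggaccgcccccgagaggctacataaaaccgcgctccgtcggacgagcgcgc
Among the 33 promoters that RefSeq gives for 24 of the 31 early genes called higher, 3 hold this CRE in the 250 bases before the start, or 9.09%. The share was 1.55% of 32851 promoters of all genes and 2.49% of promoters of tested genes. A CArG box, the site of serum response factor, searched on both strands, lies in 6 of the 33 (18.18%), 4 of which belong to Egr2, against 1.47% of all promoters. The AP-1 letters TGANTCA, searched on both strands, lie in 1 (3.03%), against 6.75% of all. Other letters searched were also frequent: ACGTG lay in 30.3%, CACGTG in 18.18% and TGACNNNGC in 33.33%, against 16.57%, 6.02% and 10.16% of all promoters. GAAANNGAAA and TTCNNNGAA lay in 3.03% each, against 2.98% and 7.02%. These are matches of letters in 1 window and do not show binding.

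**Figure D3:**
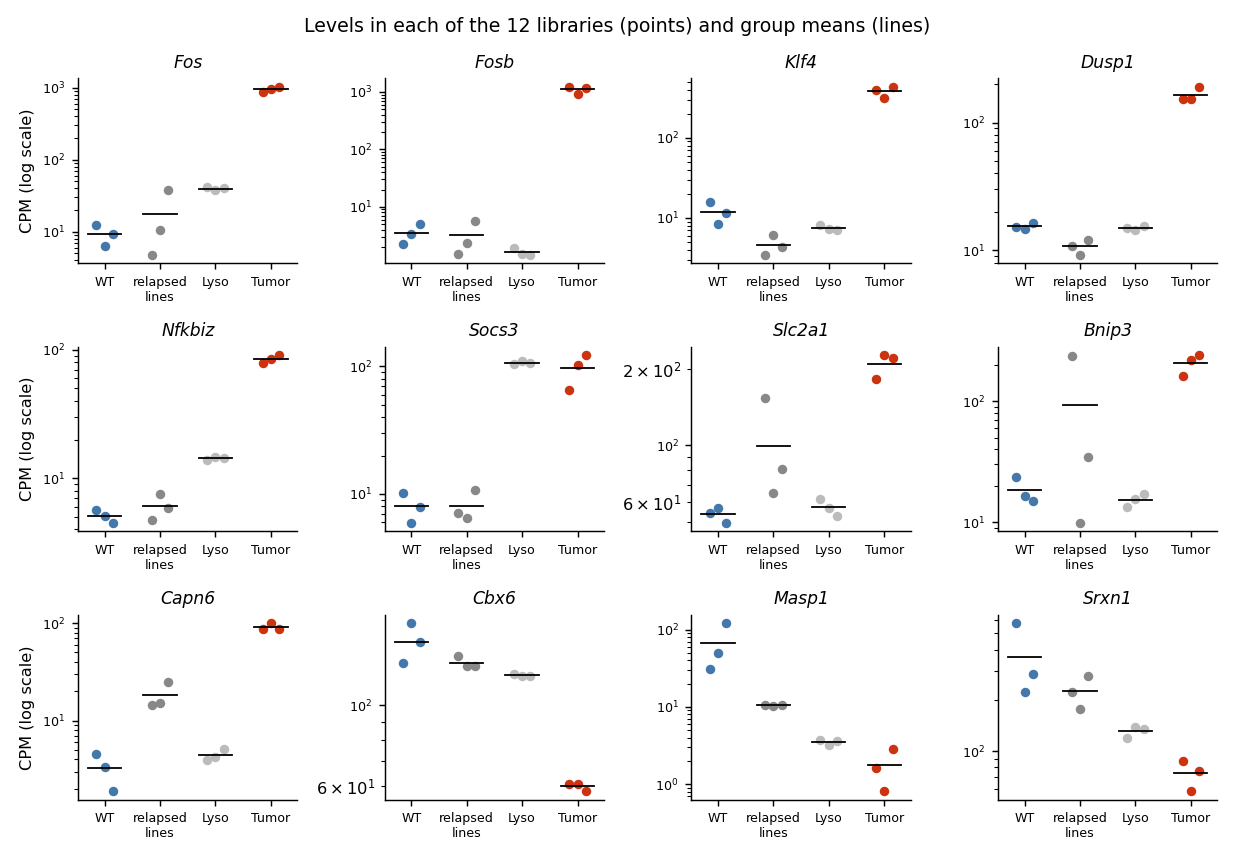
CPM on a log axis of 12 genes in each of the 12 libraries, with points for libraries and lines for group means. Fos, Fosb, Klf4, Dusp1, Nfkbiz and Capn6 lie above every cultured library in all 3 Tumor libraries, Socs3 is as high in Lyso, and Cbx6, Masp1 and Srxn1 lie lowest in Tumor.

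Some cytokine signalling genes were higher, at several levels of the pathway. Among receptors, 9 of 18 tested were higher, 1 of them absent from culture and 5 with low or uneven counts in WT. Of the 11 expressed in WT, 3 were higher, with a median of 0.20. Il6st, the gp130 subunit shared by receptors of the IL-6 family, was at 56.6, 57.8 and 62.8 CPM in WT and 162, 158 and 146 CPM in Tumor (log2 fold change 1.39, SE 0.16, adjusted p = 7.33e-05). Osmr, which pairs with gp130 to bind oncostatin M, was at 7.36, 5.07 and 6.19 CPM and 34.8, 25.4 and 15.5 CPM (log2 fold change 2.02, SE 0.27, adjusted p = 2.59e-04). Il4ra, the IL-4 receptor, had 0.566, 1.69 and 1.42 CPM in WT and 59.2, 19.7 and 32.7 CPM in Tumor, and Il13ra1, its partner, rose by 1.61. Ifngr1, the ligand-binding chain of the interferon-gamma receptor, had an adjusted p of 0.0313 but a log2 fold change of only 0.58. Downstream, 4 of 19 JAK, STAT and SOCS genes were called, all higher: Stat3, Jak3, Socs3 and Pim1. Socs3, the feedback inhibitor that STAT3 induces, was at 10.2, 5.91 and 7.902 CPM and 64.7, 103 and 122 CPM (log2 fold change 3.62, SE 0.27, adjusted p = 2.05e-06). Pim1, a kinase that is also a STAT target, was at 10.8, 5.91 and 7.73 CPM and 42.6, 32.004 and 45.7 CPM (log2 fold change 2.33, SE 0.21, adjusted p = 1.03e-05). Jak1, the kinase of most of these receptors, was at 131, 142 and 189 CPM in WT and 166, 164 and 172 CPM in Tumor and was not called, and Stat5a had an adjusted p of 0.135.

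In the NF-κB list 8 of 16 were higher. Nfkbiz (chromosome 16, 55811375 to 55838899), an inducible nuclear IκB protein, was at 5.66, 5.07 and 4.48 CPM in WT and 78.3, 85.3 and 90.9 CPM in Tumor, a log2 fold change of 4.13 (SE 0.19, adjusted p = 3.62e-08). The inhibitors Nfkbia and Tnfaip3, both targets of NF-κB, rose by 1.64 and 4.22, and the subunit Rel by 1.23. Birc3, an inhibitor of apoptosis, rose by 1.87. Nfkb2 overlapped between the groups (40.8, 34.6 and 42.9 against 45.8, 39.05 and 35.1 CPM), and the median of the 12 expressed members was 0.28. Adhesion molecules that NF-κB induces were low in WT and present in Tumor: Icam1 was at 0.566, 0.422 and 0.177 CPM and 10.7, 10.3 and 19.3 CPM, and Vcam1 at 0, 0 and 0.649 CPM and 9.75, 8.66 and 8.003 CPM.

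Genes of the interferon-gamma response were higher in Tumor, by an amount that depended on WT 3. Of the 22 tested GTPases and regulators, 13 were higher with all WT libraries and 15 with WT 1 and WT 2. Low or uneven counts in WT held for 12 of the 13, and of the 8 expressed in every WT library 1 was called. The median of the 8 expressed in every WT library went from 0.72 to 2.61 with WT 1 and WT 2 and to -0.15 with WT 3 alone, and without Tumor 4 it was 0.03. Irf1 (chromosome 11, 53770014 to 53778374), the transcription factor that carries the response, was at 4.53, 8.02 and 17.9 CPM in WT and 35.4, 64.6 and 173 CPM in Tumor (log2 fold change 2.91, SE 0.52, adjusted p = 0.00198), so that even Tumor 1, the lowest, lay above WT 3. Cxcl9, a chemokine that draws T cells, had 0, 0 and 0.05897 CPM in WT and 17.9, 22.9 and 48.02 CPM in Tumor. Among the GTPases that attack intracellular pathogens, Iigp1 had 0, 0 and 0.295 CPM and 17.2, 44.9 and 170.2 CPM. Igtp had 2.26, 1.27 and 10.9 CPM and 14.3, 39.5 and 149.9 CPM (log2 fold change 3.31, SE 0.93, adjusted p = 0.0259), and Tgtp2, which has a near-identical copy in Tgtp1, had 0, 0.844 and 0.177 CPM and 4.55, 20.3 and 79.1 CPM. Gbp2 overlapped between the groups through WT 3 (5.66, 6.33 and 57.6 against 31.2, 67.2 and 263 CPM) and was called with WT 1 and WT 2 as controls (4.33, adjusted p = 0.0193). In every gene of this paragraph Tumor 4 was the highest of the Tumor libraries and Tumor 1 the lowest. The call of Igtp was lost without WT 2 or Tumor 4 (adjusted p up to 0.148).

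The sequences before the starts of Irf1, Igtp and Tgtp2 show the letters that STAT and IRF proteins recognise. Capitals mark the gamma-activated site (GAS, TTCNNNGAA) and the interferon-stimulated response element (ISRE, GAAANNGAAA), on either strand. Each is the last 150 bases before the RefSeq start on GRCm38.p6, on the strand of the gene: Irf1 at chr11:53769864-53770013, plus strand, Igtp at chr11:58199406-58199555, plus strand and Tgtp2 at chr11:49064213-49064362, minus strand.
Irf1: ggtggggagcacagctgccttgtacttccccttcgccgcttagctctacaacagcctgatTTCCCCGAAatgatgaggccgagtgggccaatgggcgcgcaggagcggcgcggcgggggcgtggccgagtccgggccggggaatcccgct
Igtp: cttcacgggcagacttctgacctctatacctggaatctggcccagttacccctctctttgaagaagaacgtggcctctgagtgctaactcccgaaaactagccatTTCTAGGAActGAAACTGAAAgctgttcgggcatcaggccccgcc
Tgtp2: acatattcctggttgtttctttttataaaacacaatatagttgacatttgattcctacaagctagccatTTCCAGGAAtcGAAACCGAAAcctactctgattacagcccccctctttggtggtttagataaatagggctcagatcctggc
In Igtp and Tgtp2 the GAS is followed after a pair of bases by the ISRE, and Irf1 has the GAS alone. Of 9 promoters for 7 of the 13 interferon-gamma genes called higher, 6 hold a GAS in the 250 bases before the start (66.67%) and 4 an ISRE (44.44%), against 7.02% and 2.98% of all promoters. Of 16 promoters for 14 of the 17 MHC class I genes called higher, 2 hold a GAS and 2 an ISRE (12.5% each).

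Antiviral genes, the usual targets of type I interferon, had a median near that of all expressed genes when all controls were used. Of 34 tested, 4 were higher (Oas3, Zbp1, Ifi203 and Ifi204), and the median of the 18 expressed in WT was 0.01. With WT 1 and WT 2 as controls 13 were higher and the median was 1.73, and with WT 3 alone the median was -0.88. Ifit3, an antiviral protein of the IFIT family, was at 2.83, 4.22 and 61.03 CPM in WT and 6.83, 11.9 and 27.8 CPM in Tumor, with WT 3 above all Tumor libraries. Isg15 was at 13.002, 10.3 and 15.8 CPM in Tumor, again under WT 3. Mx1 and Oas2 had adjusted p-values of 0.888 and 0.0636. Zbp1, a sensor of Z-form nucleic acid that starts necroptosis, was at 0, 0 and 1.53 CPM in WT and 11.1, 10.1 and 41.2 CPM in Tumor (log2 fold change 4.22, SE 0.704, adjusted p = 0.00121), above WT 3 in each Tumor library. The call of Oas3 was lost without WT 3 (adjusted p = 0.107).

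**Figure D4:**
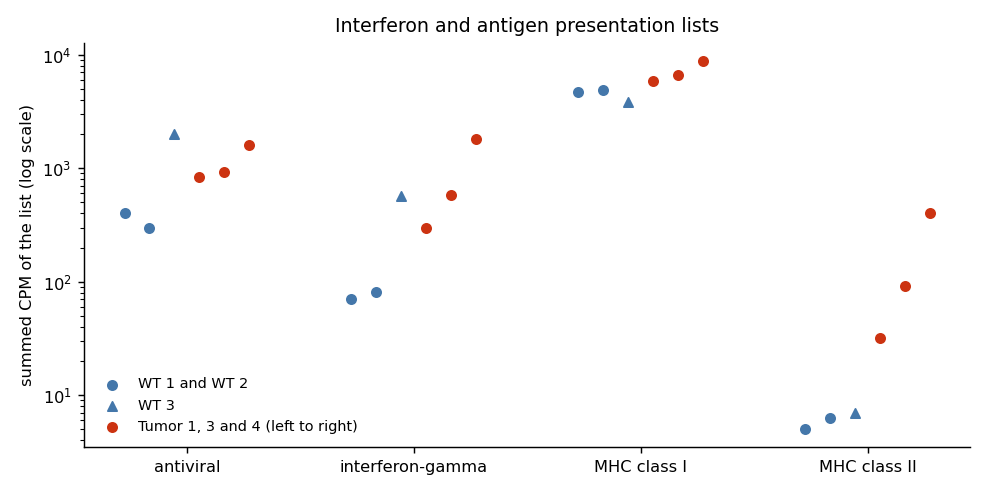
Summed CPM on a log axis of 4 lists in WT 1 and WT 2 (blue points), WT 3 (triangle) and Tumor 1, 3 and 4 (red points from left to right). WT 3 exceeds all Tumor libraries in the antiviral list and lies between Tumor 1 and Tumor 3 in the interferon-gamma list, while the MHC lists are higher in every Tumor library than in any WT library.

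Antigen presentation was higher in all Tumor libraries. Of 23 MHC class I genes tested, 17 were higher, 15 with WT 1 and WT 2 and 8 with WT 3 alone as the control, and the median of the 15 expressed in WT was 1.11, or 0.61 without Tumor 4. Tap1, which pumps peptides into the endoplasmic reticulum, was at 5.09, 4.64 and 16.1 CPM in WT and 33.2, 52.5 and 169 CPM in Tumor (log2 fold change 2.99, SE 0.62, adjusted p = 0.00485). Psmb8, a subunit of the immunoproteasome, was at 0, 0 and 0.295 CPM in WT and 13.98, 37.8 and 129 CPM in Tumor, and Psmb9, another, was at 6.501, 17.7 and 78.9 CPM in Tumor. Nlrc5, the transactivator of these genes, had 0.566, 2.11 and 4.48 CPM and 20.2, 43.7 and 91.6 CPM (log2 fold change 3.92, SE 0.65, adjusted p = 0.00114). Of the heavy chains, whose near-identical copies make single values uncertain, H2-Q4 rose from 15.3, 9.71 and 10.9 to 52.01, 74.1 and 146 CPM (log2 fold change 2.98, SE 0.44, adjusted p = 5.18e-04). MHC class II genes, expressed by dendritic cells, macrophages and B cells and inducible in melanoma, were higher in 7 of 7 tested. Every WT library expressed 1 of these, and the other 6 had low or uneven counts in WT, where the list summed to 5.09 to 7.02 CPM. Cd74, the invariant chain, was at 1.13, 1.69 and 1.002 CPM in WT and 12.7, 29.99 and 159 CPM in Tumor, and H2-Aa at 0, 1.27 and 0 CPM and 4.23, 13.1 and 73.4 CPM. With WT 1 and WT 2 as controls 4 of the class II genes passed. The summed class II level was 32.2, 91.99 and 399 CPM in Tumor 1, 3 and 4, while B and plasma cell markers summed to 29.3, 2.62 and 35.8 CPM, Xcr1, of cross-presenting dendritic cells, was at 0, 0.201 and 0 CPM, and macrophage markers at 69.2, 85.1 and 96.04 CPM. The part of these cells in the class II values was not tested. Cd274, which encodes the checkpoint ligand PD-L1, rose from 4.53, 5.07 and 8.37 to 24.4, 37.2 and 74.9 CPM (log2 fold change 2.73, SE 0.605, adjusted p = 0.00706), 1 of 3 called among 9 checkpoint genes, with Vsir and Cd80. Cd276 had an adjusted p of 0.0152 at a log2 fold change of 0.91. The call of Cd80 was lost without WT 3 or Tumor 3 (adjusted p up to 0.0928).

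Glycolytic and hypoxia-responsive genes were a further family that the cultured cells express. Of 25 tested, 15 were higher, with a median of 1.26 over the 22 expressed in WT, and 10 passed with WT 1 and WT 2. The list summed to 8681 to 11052 CPM in WT and 15068 to 20676 CPM in Tumor. Culture alone could reach that level, since 1 of the 3 cultured relapsed lines summed to 23431 CPM, above every Tumor library. The other lines were at 9823 and 10988 CPM. Car9, the HIF target carbonic anhydrase IX that keeps pH in low oxygen, was at 5.66, 5.49 and 5.78 CPM in WT and 118, 238 and 254 CPM in Tumor (log2 fold change 5.16, SE 0.91, adjusted p = 0.00168). Bnip3 (chromosome 7, 138890836 to 138909519), which marks mitochondria for removal, was at 23.8, 16.5 and 14.9 CPM and 163, 220.4 and 241 CPM (log2 fold change 3.57, SE 0.87, adjusted p = 0.0118), with an adjusted p of 0.0609 when WT 1 and WT 2 were the controls. With only the Tumor and WT libraries in the fit, the adjusted p was 5.21e-05 for Bnip3 and 6.33e-05 for Car9. Slc2a1, the glucose transporter GLUT1, was at 54.3, 56.999 and 49.5 CPM and 183, 227 and 219.8 CPM (log2 fold change 1.98, SE 0.26, adjusted p = 2.14e-04). The hexokinases Hk1 and Hk2, the first step of glycolysis, rose by 1.33 and 1.76, Pfkp, of phosphofructokinase, by 1.71, Gpi1 by 1.18 and Ndrg1, a stress gene induced by hypoxia, by 1.41. Ldha, which makes lactate, was at 724, 1627 and 1161 CPM in WT and 1802, 2488 and 2515 CPM in Tumor. It did not pass (log2 fold change 0.95, adjusted p = 0.145). In Car9, Bnip3 and Pfkp, Tumor 1 was the lowest Tumor library.

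The HIF site, ACGTG, lies in the last 150 bases before the RefSeq start of Car9 (chr4:43506876-43507025, plus strand), Bnip3 (chr7:138909507-138909656, minus strand) and Slc2a1 (chr4:119108595-119108744, plus strand) on GRCm38.p6. It is in capitals on either strand, and in Bnip3 it overlaps itself in the palindrome CACGTG, which is also an E-box.
Car9: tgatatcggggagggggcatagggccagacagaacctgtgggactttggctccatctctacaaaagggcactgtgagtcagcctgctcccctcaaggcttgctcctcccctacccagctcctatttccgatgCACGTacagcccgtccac
Bnip3: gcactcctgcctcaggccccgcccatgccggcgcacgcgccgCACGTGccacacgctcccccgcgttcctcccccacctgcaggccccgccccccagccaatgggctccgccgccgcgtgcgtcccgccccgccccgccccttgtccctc
Slc2a1: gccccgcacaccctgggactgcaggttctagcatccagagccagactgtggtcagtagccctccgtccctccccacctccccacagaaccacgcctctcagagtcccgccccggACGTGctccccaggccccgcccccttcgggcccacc
Of 17 promoters for 14 of the 15 genes called higher, 6 hold the site in 250 bases (35.29%). The share was 16.57% of all promoters and 21.56% of those of tested genes. The same letters lay in 10 of the 33 early gene promoters (30.3%) and in 4 of the 16 MHC class I promoters. They also lay in 2 of the 9 interferon-gamma promoters and in 1 of the 3 of oxidative stress genes called lower. The site was therefore not particular to this list, and the difference between lists was not tested.

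Vegfa, the angiogenic growth factor that low oxygen and the ATF4 response both raise, was at 197, 17.3 and 18.1 CPM in WT and 285, 266 and 291 CPM in Tumor. It was not called (log2 fold change 1.96, SE 0.78, adjusted p = 0.0993), and without WT 1 it was (3.97, adjusted p = 3.00e-04). Of 25 genes of the ATF4 and unfolded protein response, 1 was higher with all controls, Dnajb9, and 11 without WT 1. Asns, asparagine synthetase, was at 617, 114 and 100.2 CPM in WT and 377, 259.9 and 257 CPM in Tumor, and Ddit3, which encodes CHOP, at 208, 26.6 and 32.3 CPM and 70.9, 71.3 and 95.1 CPM. Against WT 2 and WT 3 their log2 fold changes were 1.47 and 1.395, against 0.13 and -0.09 with all controls. Hspa5, the chaperone of the endoplasmic reticulum, and Psat1, of serine synthesis, overlapped between the groups. The call of Dnajb9 was lost without WT 2, WT 3, Tumor 1 or Tumor 4 (adjusted p up to 0.145).

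Of 34 cholesterol and fatty acid genes 7 were higher, 4 without WT 1, and the median of the 33 expressed in WT was 0.63. Insig1, the sterol sensor that holds back SREBP, was at 71.3, 149 and 104 CPM in WT and 327, 294 and 288 CPM in Tumor (log2 fold change 1.48, SE 0.27, adjusted p = 0.00207). Stard4, which carries cholesterol between membranes, was at 16.4, 30.4 and 33.8 CPM and 52.3, 67.4 and 63.8 CPM (log2 fold change 1.12, SE 0.25, adjusted p = 0.00668). WT 1 was the lowest library for both genes, and Fasn and Sqle, which were not called, had adjusted p-values of 0.159 and 0.123. The call of Stard4 was lost without WT 1 (log2 fold change 0.916).

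The 2 genes with the smallest p among those expressed in WT were collagens. Col1a1 (chromosome 11, 94936224 to 94953042), a chain of type I collagen, was at 4.53, 3.7999 and 4.72 CPM in WT and 2655, 2096 and 1922 CPM in Tumor, a log2 fold change of 8.95 (SE 0.36, adjusted p = 1.03e-08). Col1a2 (chromosome 6, 4504814 to 4541544), the other chain, was at 5.66, 2.53 and 3.42 CPM and 2299, 1784 and 1619 CPM, a log2 fold change of 9.04 (SE 0.37, adjusted p = 1.18e-08). Of 30 collagen chains tested, 18 were higher, 3 of them absent from culture, and 1 lower, Col9a2, named after its values were seen. Col4a1, of basement membrane, was at 13.6, 16.9 and 30.1 CPM and 315, 271 and 189 CPM (log2 fold change 3.55, SE 0.34, adjusted p = 1.68e-05). Of 41 tested matrix proteins other than collagens, 32 were higher, 10 of them absent from culture, and the median of the 19 expressed in WT was 1.07. Fn1, fibronectin, went from 48.7, 109 and 131 to 1220.0, 1083 and 1045 CPM (log2 fold change 3.51, SE 0.39, adjusted p = 6.36e-05), and Postn, periostin, from 5.09, 13.5 and 17.5 to 299.7, 214 and 285 CPM (log2 fold change 4.29, SE 0.32, adjusted p = 1.72e-06). Fstl1, a secreted antagonist of BMP signalling, was at 28.3, 24.9 and 30.7 CPM and 566, 487 and 406 CPM (log2 fold change 4.101, SE 0.17, adjusted p = 1.19e-08). Sparc, which melanoma cells secrete in quantity, overlapped between the groups (769, 1824 and 2309 against 1776, 1449.8 and 1426 CPM).

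Of the enzymes that build and cut the matrix, part were higher and none was called lower. Loxl2, a crosslinker of collagen, was at 4.53, 2.96 and 3.13 CPM in WT and 110.2, 95.01 and 73.4 CPM in Tumor (log2 fold change 4.798, SE 0.72, adjusted p = 5.63e-04), and 10 of 23 modification genes were higher. Serpinh1, the collagen chaperone HSP47, was already high in WT (996, 1124 and 855 CPM) and at 1237, 1028 and 879 CPM in Tumor. Of 21 proteases and inhibitors, 12 were higher. Mmp2, gelatinase A, was at 5.09, 6.33 and 11.1 CPM and 154, 166 and 180.1 CPM (log2 fold change 4.26, SE 0.28, adjusted p = 5.89e-07), Adamts5, which cuts aggrecan, at 5.09, 5.91 and 7.02 CPM and 40.3, 55.4 and 37.2 CPM (log2 fold change 2.81, SE 0.22, adjusted p = 3.22e-06), and Timp1, the inhibitor, at 5.09, 11.8 and 12.8 CPM and 62.4, 29.6 and 32.01 CPM (log2 fold change 1.94, SE 0.32, adjusted p = 0.00108). Mmp14, the membrane protease that activates MMP2, did not pass (0.42, adjusted p = 0.0779). Ctsk, the collagen-cutting cathepsin, rose by 3.61, 1 of 2 called among 26 lysosomal genes, with Tfeb. Fibroblast marker sums were 35.04 to 50.4 CPM in WT and 7763 to 10753 CPM in Tumor. Most of the Tumor sums came from Col1a1, Col1a2 and Col3a1, so these sums are not a measure separate from the matrix genes. The part of fibroblasts in the matrix values was not tested. The call of Tfeb was lost without WT 3 or Tumor 1 (adjusted p up to 0.075).

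Among the 317 genes higher in Tumor that no cultured library expressed, the median level in Tumor was 4.45 CPM, and 92 reached a mean of 10 CPM. Fold changes have no base here, and the values below are levels in Tumor and counts in WT, with a lower bound where WT had no count, set against 3 counts over the 3 WT libraries (0.142 CPM). Matrix genes stood highest. Col3a1, of type III collagen, was at 4938, 4157 and 3369 CPM in Tumor, with counts of 0, 0 and 1 in WT 1, 2 and 3. Dcn, the collagen-binding proteoglycan decorin, was at 271, 300.1 and 286 CPM, Col6a1, of type VI collagen, at 255, 149 and 211 CPM and Loxl1, an elastin crosslinker, at 111, 96.2 and 88.5 CPM. Aspn, Adamts2, Emilin2, Svep1 and Sulf1, all of the extracellular matrix, had means of 25.3 to 62.8 CPM. Col6a2 had no count in WT and 234, 141 and 199.6 CPM in Tumor, at least 1347-fold higher.

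Complement was the second group. C3, the central component, was at 475, 754 and 767 CPM in Tumor and had 1 count in all of WT. Serping1, the inhibitor of C1, was at 161, 195 and 172 CPM with no count in WT, at least 1237-fold higher. Cd55, which holds complement back on host cells, was at 23.4, 31.6 and 31.3 CPM, also with no count in WT. Lbp, which binds bacterial lipopolysaccharide, was at 89.1, 114 and 68.3 CPM. Of the proteases that start the cascade, C1ra and C1s1 are expressed in culture too. C1ra was at 9.62, 4.22 and 8.08 CPM in WT and 66.3, 73.3 and 72.03 CPM in Tumor (log2 fold change 3.25, SE 0.44, adjusted p = 2.63e-04), and C1s1 at 5.66, 2.11 and 3.72 CPM and 87.4, 101 and 101 CPM (log2 fold change 4.699, SE 0.497, adjusted p = 3.82e-05). The lectin pathway protease Masp1 went the other way, from 31.1, 50.2 and 121 to 1.63, 0.805 and 2.82 CPM (log2 fold change -5.34, SE 0.52, adjusted p = 2.10e-05). Altogether 8 complement genes were higher of 13 tested, 5 of them absent from culture, and 2 lower, Masp1 and the inhibitor Cd59a (log2 fold change -1.18, SE 0.34, adjusted p = 0.0281). The call of Cd59a was lost without WT 3, Tumor 1, Tumor 3 or Tumor 4 (adjusted p up to 0.137).

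Chemokines and cytokines were mostly absent from culture: 10 of the 15 called higher, of 21 tested, had 3 or fewer counts in every cultured library. Ccl2, which draws monocytes, was at 42.6, 36.2 and 32.5 CPM in Tumor and Ccl7, its neighbour in the gene cluster, at 17.2, 21.1 and 26.8 CPM. Ccl11, eotaxin, was at 33.8, 19.1 and 21.9 CPM, at least 175-fold higher than in WT. Cxcl12, the stromal ligand of CXCR4, was at 85.2, 68.4 and 69.9 CPM, and Cxcl2, which draws neutrophils, at 7.48, 8.45 and 13.4 CPM. Its relative Cxcl1, with 3 counts in all of WT but more in another cultured library, was at 114, 101 and 93.9 CPM. Il6 had 0, 0 and 0.531 CPM in WT and 26.7, 28.6 and 32.01 CPM in Tumor (log2 fold change 6.15, SE 0.502, adjusted p = 4.11e-06), while Cxcl10, expressed in culture, went from 13.02, 8.44 and 32.02 to 101, 99.4 and 210.0 CPM (log2 fold change 2.75, SE 0.42, adjusted p = 6.48e-04). The level of Cxcl10 was 356 ± 13.3 CPM in Lyso (SD, n = 3). The IL-1 receptor gene Il1r1 was at 37.4, 27.98 and 22.1 CPM with no count in WT.

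Growth factors, their receptors and regulators of mesenchyme followed. Egfr, the EGF receptor, was at 33.5, 21.3 and 20.2 CPM in Tumor and Ntrk2, a neurotrophin receptor, at 6.501, 9.06 and 11.3 CPM, neither with a count in WT. Ereg, an EGF receptor ligand, was at 14.6, 8.66 and 4.47 CPM, Igf1 at 5.53, 5.64 and 10.8 CPM and Gas6, the ligand of AXL, at 18.5, 15.1 and 36.96 CPM. Prrx1, a transcription factor of mesenchyme, was at 53.3, 33.8 and 36.96 CPM and Twist1, of mesenchyme and neural crest, at 5.201, 3.82 and 5.88 CPM. In contrast, Zeb2, Sox9 and Ngfr, which mark states of melanoma, were not called, and Tead4, a partner of YAP, was lower (log2 fold change -2.13, SE 0.39, adjusted p = 0.00238). Of the tyrosine kinases expressed in culture, Axl was at 14.7, 18.9996 and 45.6 CPM and 67.9, 76.3 and 116 CPM (log2 fold change 1.58, SE 0.38, adjusted p = 0.0105) and Epha3 at 58.9, 62.1 and 81.5 CPM and 197, 230.3 and 268 CPM (log2 fold change 1.76, SE 0.26, adjusted p = 4.71e-04), while Ddr1, a collagen receptor, was lower (log2 fold change -1.17, SE 0.26, adjusted p = 0.00755). Met, at 859, 1603 and 1457 CPM in WT and 1713, 2061 and 1914 CPM in Tumor, and Erbb3 were not called. Among imprinted genes with no count in WT, the noncoding RNA Meg3 was at 27.6, 29.4 and 22.6 CPM in Tumor, the noncoding RNA H19 at 16.3, 13.1 and 17.2 CPM and Grb10, an adaptor of insulin signalling, at 18.2, 16.3 and 16.2 CPM. Endothelial genes reached lower levels, with Kdr, the VEGF receptor, at 4.55, 4.43 and 3.77 CPM and Tek at 4.88, 8.86 and 8.94 CPM. The complement gene C1qa, a macrophage marker, was at 4.55, 5.43 and 5.41 CPM and Mrc1, the mannose receptor, at 6.501, 8.25 and 4.47 CPM. Cd34, shared by endothelial cells and fibroblasts, was at 70.9, 76.7 and 82.9 CPM, at least 540.0-fold higher. The call of Ddr1 was lost without WT 3 (log2 fold change -0.933).

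The Tumor libraries differed among themselves along these families, and not in the same order. Psmb8 and H2-Aa, given above, were lowest in Tumor 1 and highest in Tumor 4. Serpinb2, an inhibitor of urokinase, ran the other way, with 124, 61.4 and 22.1 CPM in Tumor 1, 3 and 4, as did Inhba, of activin A, with 34.5, 11.1 and 3.53 CPM, and Lox, lysyl oxidase, with 271, 189.8 and 74.1 CPM. The labels do not rank these libraries, so the values are given as a description.

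Lower genes were fewer and their steps smaller: the median log2 fold change of the 274 expressed in WT was -1.38, against 1.54 for the 397 higher. Cbx6 (chromosome 15, 79823896 to 79834688), a Polycomb chromodomain protein, had the smallest p of them. It was at 131, 168 and 149 CPM in WT and 60.8, 60.6 and 57.9 CPM in Tumor (log2 fold change -1.32, SE 0.11, adjusted p = 4.66e-06). Gxylt2, which adds xylose to EGF repeats of Notch, was at 179, 221 and 208 CPM and 33.8, 35.4 and 64.7 CPM (log2 fold change -2.18, SE 0.22, adjusted p = 2.43e-05), and Lrrc75b at 29.4, 22.8 and 41.6 CPM and 4.55, 2.01 and 2.82 CPM (log2 fold change -3.42, SE 0.35, adjusted p = 2.78e-05). Mcoln3, a calcium channel of endosomes, was at 118, 119 and 111 CPM and 45.5, 49.7 and 52.3 CPM (log2 fold change -1.24, SE 0.13, adjusted p = 3.07e-05). Cdc34, a ubiquitin-conjugating enzyme, Klhl42, an adaptor of cullin ligases, and Mis12, of the kinetochore, fell by 1.15, 1.33 and 1.02 on the log2 scale. Rhod, a small GTPase of endosomes, fell by 1.76, Cavin2, of caveolae, by 1.204, and Sephs2, of selenoprotein synthesis, by 1.37. The zinc finger genes Zfp958 and Zfp239 fell by 1.73 and 1.04. These genes were chosen for groups that do not overlap. The call of Mis12 was lost without WT 1, WT 3 or Tumor 4 (log2 fold change as small as -0.93) and that of Zfp239 without Tumor 1 (log2 fold change -0.96).

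Of the 19 p53 targets tested, 3 were lower and 2 higher, and the median of the 15 expressed in WT, -0.76, was the lowest of the family lists. Ccng1, cyclin G1, was at 421, 303 and 421 CPM in WT and 149, 134 and 112 CPM in Tumor (log2 fold change -1.54, SE 0.21, adjusted p = 2.84e-04). Phlda3, an inhibitor of AKT, was at 144, 111 and 173 CPM and 65.01, 56.6 and 38.8 CPM (log2 fold change -1.43, SE 0.21, adjusted p = 4.77e-04), and Aen, a nuclease of apoptosis, at 70.8, 50.7 and 57.4 CPM and 30.6, 30.2 and 26.8 CPM (log2 fold change -1.02, SE 0.15, adjusted p = 5.14e-04). Cdkn1a, the cell cycle inhibitor p21, lay lower in each Tumor library (354, 222 and 430.4 against 203, 149 and 131 CPM) without passing (adjusted p = 0.093), and Mdm2 had an adjusted p of 0.212. The 2 higher were Fas, a death receptor, and Plk2, which serum also induces. The call of Aen was lost without WT 1 or Tumor 4 (log2 fold change as small as -0.906), that of Fas without WT 2, WT 3, Tumor 1, Tumor 3 or Tumor 4 (adjusted p up to 0.0992) and that of Plk2 without WT 1, WT 2 or Tumor 4 (adjusted p up to 0.0566).

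Of 19 genes of oxidative stress, iron and metals, 3 were lower, all targets of the antioxidant transcription factor NRF2. Srxn1, sulfiredoxin, was at 573, 224 and 286 CPM in WT and 87.1, 57.8 and 76.5 CPM in Tumor (log2 fold change -2.29, SE 0.31, adjusted p = 2.59e-04), Gclm, of glutathione synthesis, at 443, 164 and 239 CPM and 60.1, 48.9 and 67.3 CPM (log2 fold change -2.26, SE 0.37, adjusted p = 0.00118), and Nqo1, a quinone reductase, at 28.9, 10.6 and 36.03 CPM and 3.58, 4.23 and 4.71 CPM (log2 fold change -2.63, SE 0.44, adjusted p = 0.00132). WT 1 was the highest library for Srxn1 and Gclm, and without it their log2 fold changes were -1.804 and -1.79, with adjusted p-values of 9.44e-05 and 0.00213. Hmox1, a further NRF2 target, was high only in WT 1 and was not called. The 3 higher were Gpx1 and Gpx3, glutathione peroxidases, and Mt2, a metallothionein whose exons lie largely opposite those of another gene. The median of the list was -0.63, but -0.195 without WT 1, and 6 genes were lower without WT 2 and 5 without Tumor 1. Srxn1 is shown since its window holds the AP-1-like letters TGANTCA that lie inside antioxidant response elements. They stand in capitals at 2 places in the last 150 bases before its start (chr2:152105374-152105523, plus strand).
Srxn1: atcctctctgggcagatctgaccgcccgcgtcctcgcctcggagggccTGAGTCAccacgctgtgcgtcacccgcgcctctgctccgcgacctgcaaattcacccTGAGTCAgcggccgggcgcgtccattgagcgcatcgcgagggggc
The fuller form of the element, TGACNNNGC, lies in 250 bases of 1 of 3 promoters of the genes called lower, that of Gclm, against 10.16% of all promoters. The call of Gpx1 was lost without WT 1 or Tumor 4 (adjusted p up to 0.0528) and that of Mt2 without WT 3 or Tumor 3 (adjusted p up to 0.0535).

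Several targets of BMP signalling were lower too. Id1, an inhibitor of helix-loop-helix factors, was at 2.26, 35.9 and 26.5 CPM in WT and 0.975, 2.21 and 1.65 CPM in Tumor (log2 fold change -3.75, SE 0.78, adjusted p = 0.00486). Id3, its relative, was at 13.02, 214 and 160.1 CPM and 6.83, 7.85 and 12.7 CPM (log2 fold change -3.83, SE 0.74, adjusted p = 0.00318). WT 1 lay close to the Tumor libraries in both, and without it the log2 fold changes were -4.15 and -4.34, with adjusted p-values of 5.13e-04 and 4.70e-05. With Tgfb3 (log2 fold change -1.18, SE 0.16, adjusted p = 3.13e-04), and with Id2 and Smad6, named after their values were seen, they make up the 5 lower of 20 TGF-β and BMP genes. Of the 6 higher, Tgfbr2, the type II receptor, was at 42.5, 45.2 and 50.5 CPM and 138, 143 and 148 CPM (log2 fold change 1.62, SE 0.19, adjusted p = 8.26e-05), and Inhba, Fst and Tgfbi were at or near 0 in WT. Tgfb1 itself did not pass (adjusted p = 0.17). Lef1, a Wnt effector, was near 0 in Tumor (0, 4.64 and 4.36 against 0, 0.604 and 0.235 CPM), and had no count in WT 1, while its relative Tcf7 rose from 7.92, 8.87 and 6.37 to 17.6, 22.7 and 39.3 CPM (log2 fold change 1.88, SE 0.29, adjusted p = 6.58e-04) and Dkk3, a secreted protein of the Dickkopf family, by 2.13. Axin2, the usual readout of Wnt signalling, overlapped (19.8, 28.7 and 22.4 against 21.5, 15.3 and 27.8 CPM). The call of Id2 was lost without WT 2, WT 3, Tumor 1, Tumor 3 or Tumor 4 (adjusted p up to 0.096) and that of Lef1 without WT 3 or Tumor 4 (adjusted p up to 0.101).

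Genes of adhesion and membranes moved singly. Of 27 integrin and focal adhesion genes 5 were higher and 3 lower, but 3 were higher without Tumor 4, and the calls of lower genes dropped to 0 without WT 3 or Tumor 3 and to 1 without Tumor 1 or Tumor 4. Itgav and Itga9 rose by 1.004 and 1.42, Vcl, vinculin, by 1.33, while Itgb5 fell by 1.05, Itga8 by 2.01 and Tln2, talin 2, by 1.13. Rnd3, a GTPase that opposes ROCK, was the 1 member of the actomyosin list expressed in WT that rose (log2 fold change 1.75, SE 0.34, adjusted p = 0.00316), and Cald1, caldesmon, fell (log2 fold change -1.28, SE 0.28, adjusted p = 0.00706). Myh9, Rhoa and Rock1, the contractile core, had adjusted p-values of 0.323, 0.986 and 0.692. Among membrane repair genes, Capn6 (chromosome X, 143802231 to 143827414), a calpain without protease activity, was at 4.53, 3.38 and 1.89 CPM in WT and 86.8, 99.4 and 86.6 CPM in Tumor, a log2 fold change of 5.14 (SE 0.32, adjusted p = 3.63e-07). Dysf, dysferlin, was at 5.66, 12.2 and 25.7 CPM and 1.95, 0.805 and 0.471 CPM (log2 fold change -4.02, SE 0.86, adjusted p = 0.00591). Anxa1 and Anxa2, annexins that patch membranes, were low in WT 1 and not called. The call of Itga8 was lost without WT 3, Tumor 1 or Tumor 3 (adjusted p up to 0.103), that of Itgav without WT 1 or Tumor 3 (adjusted p up to 0.0671), that of Itgb5 without WT 1, WT 3, Tumor 3 or Tumor 4 (adjusted p up to 0.123), that of Tln2 without WT 2, WT 3, Tumor 1, Tumor 3 or Tumor 4 (adjusted p up to 0.195) and that of Vcl without Tumor 4 (adjusted p = 0.0517).

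Few or no genes of several other families were called. Of 40 cell cycle genes 1 was called, Ccnd3, cyclin D3, which was lower (log2 fold change -1.34, SE 0.19, adjusted p = 3.81e-04). Mki67, the proliferation antigen, was at 279, 376 and 399 CPM in WT and 308, 369 and 301 CPM in Tumor, and the median of the list was -0.36, below that of all expressed genes, and -0.201 without WT 2. The fitted change lay below 0 in 36 of the 40, 13 were lower at an unadjusted p under 0.05 and 7 by adjusted p alone. In 11 of the 40 every Tumor library lay below every WT library, a pattern that 15.1% of all tested genes showed. By DESeq2 2 of the 40 were lower. None of 27 nuclear genes of oxidative phosphorylation and none of 7 mitochondrially encoded ones was called by edgeR or DESeq2, and 3 and 1 of them were lower at an unadjusted p under 0.05. Their medians were -0.04 and -0.35, and all 7 mitochondrially encoded genes lay below 0. Every Tumor library lay below every WT library in 4 of the 27 nuclear and 6 of the 7 mitochondrially encoded genes. The latter summed to 34025 to 40687 CPM in WT and 25804 to 29673 CPM in Tumor. None of 17 ribosome biogenesis genes was called by either tool, 2 were lower at an unadjusted p under 0.05, and their median was -0.06. Cell death genes showed 5 of 23 higher, 3 without WT 3, and all 5 (Casp1, Casp4, Casp12, Gsdmd and Ripk3) belong to inflammatory or necroptotic death and were low in WT, with Casp4 at 7.92, 0.844 and 1.24 CPM and 17.6, 14.3 and 13.4 CPM. Bcl2, Mcl1 and Casp8, of the mitochondrial and receptor pathways, were not called. The call of Casp1 was lost without WT 3 or Tumor 3 (adjusted p up to 0.169) and that of Casp4 without WT 3 (adjusted p = 0.0729).

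**Figure D5:**
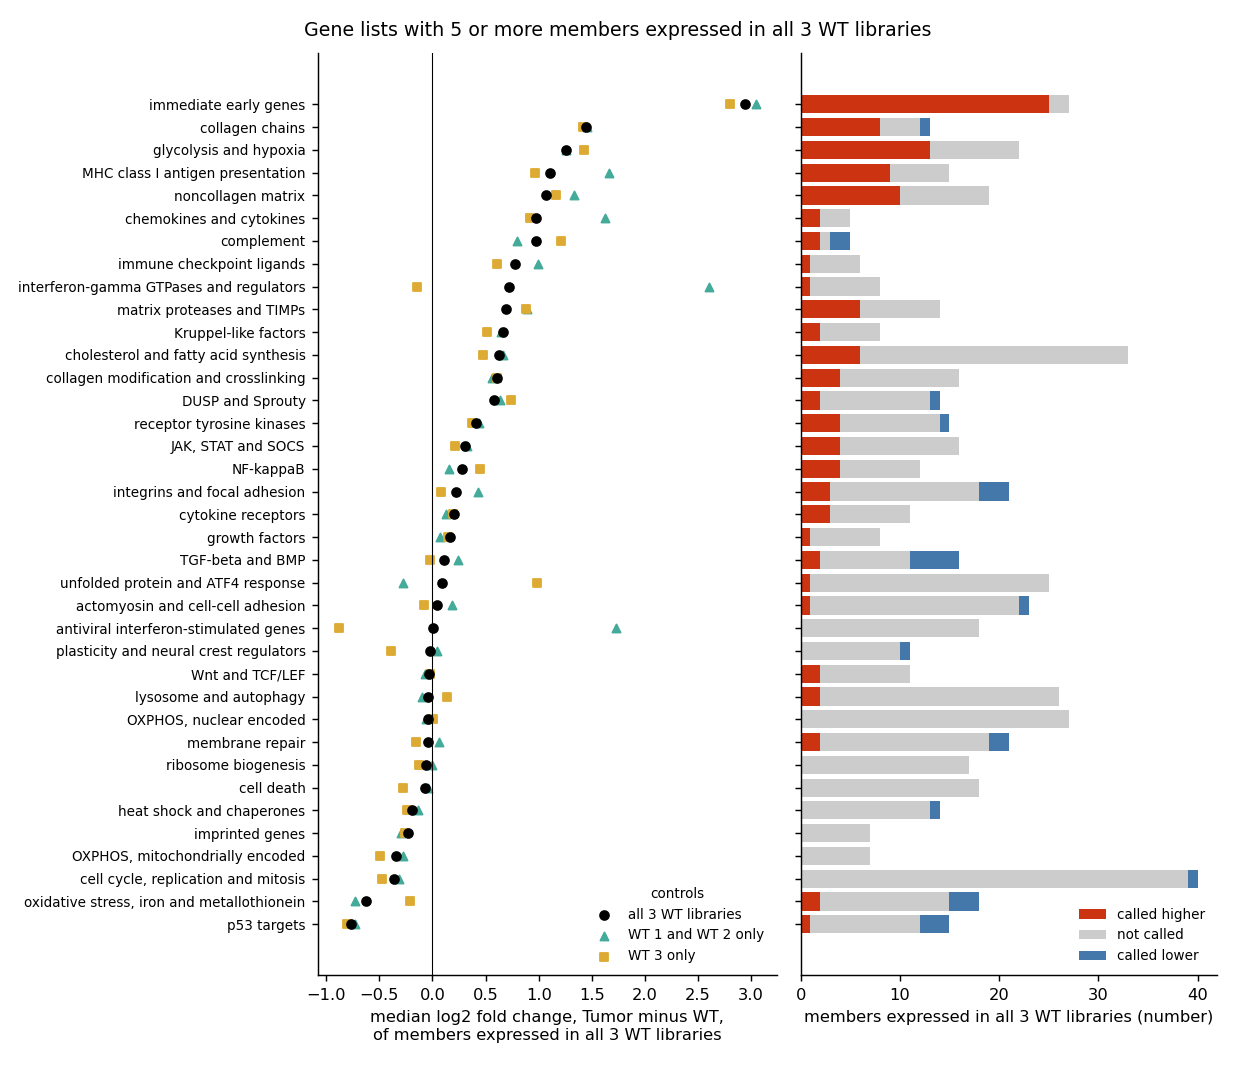
Left, median log2 fold change of Tumor over WT for the members of each gene list that all 3 WT libraries express, with all WT libraries (black points), WT 1 and WT 2 (triangles) or WT 3 (squares) as controls. Right, how many of those members were called higher (red), not called (grey) or lower (blue); immediate early genes stand at 2.94 with 25 of 27 higher, and the medians that depend most on the controls are those of the interferon and ATF4 lists.

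The same genes in the other cultured groups are given as levels. In the 3 cell lines regrown from relapsed tumors, Fosb was at 3.19 ± 2.204 CPM, Klf4 at 4.597 ± 1.33 CPM and Col1a1 at 1.94 ± 0.936 CPM (SD, n = 3) against means of 3.53, 11.97 and 4.35 CPM in WT. Capn6 was at 18.2 ± 5.95 CPM there, between WT and Tumor, and Bnip3 at 93.1 ± 123 CPM, with the lines far apart. In Lyso, Nfkbiz was at 14.3 ± 0.378 CPM, Tcf7 at 116 ± 11.4 CPM, Tap1 at 279.9 ± 19.1 CPM and Irf1 at 721 ± 54.8 CPM (SD, n = 3), the last 3 above their Tumor means of 26.5, 84.9 and 91.1 CPM. Masp1, lower in Tumor, was also low in the relapsed lines (10.6 ± 0.136 CPM) and in Lyso (3.47 ± 0.268 CPM). All these groups share the WT controls, so no test was made between their differences from WT.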

How the data were processed

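RNA was measured by mRNA sequencing in 12 libraries of B16F10 cells, of which 3 Tumor and 3 WT libraries are compared here. The authors deposited raw counts per gene for each library: per the methods and the submitters' processing notes, reads were trimmed with fastp 0.19.6, aligned to GRCm38 with STAR 2.7.1a, and compared with DESeq2 1.24.0. The strand setting of the counting and the annotation release are not given in the sources used here, so genes that lie opposite another gene are uncertain. The 4 rows of reads not counted on a gene (60.6% to 61.9% of reads in the 6 libraries) were left out.

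Genes passing filterByExpr (14924 of 54232) were fitted across all 12 libraries in 4 groups with edgeR 4.0.16 (R 4.3.3) after TMM scaling, and Tumor was tested against WT by the quasi-likelihood test with Benjamini-Hochberg adjustment. Calls needed an adjusted p below 0.05 together with a log2 fold change beyond 1 in either direction. The step was tested on simulated data. With 3 libraries against 3, an exact permutation test of 1 gene cannot go below 0.1. Gene symbols and positions came from GENCODE M21, which held 54165 of the identifiers. Promoter sequences came from RefSeq on GRCm38.p6.

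Members and the 53 gene lists (1061 symbols, all matched) were chosen with earlier results of these data known. The genes named are the core genes of each list, up to 5 further called genes per list with the smallest p, and the 15 called genes with the smallest p and no overlap between groups in each of 3 classes: higher and absent from culture, higher and expressed in WT, and lower. Ccn2, Cd59a, Col9a2, Ddr1, Dusp2, Egr2, Eng, Id2, Rhob, Smad6, Tgtp1 and Tln2 fall outside that rule and were chosen after their values were seen. Some genes that the rule names are not reported here. The alternatives were DESeq2 1.42.0, other scalings, filters, thresholds, classes and controls, a replicate block, and leaving out each library.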

Additional observations from a re-analysis of the deposited data

Results flagged for a closer look

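The relapsed cell lines, which the comparison of Tumor with WT does not use, showed marker levels above every WT library for 3 of the 14 lists of cell type markers. Melanocyte markers summed to a mean of 45074 CPM in the relapsed lines, the lowest line being at 39535 CPM and the highest WT library at 37541 CPM. Skeletal muscle markers summed to a mean of 2.93 CPM, the lowest line being at 2.68 CPM and the highest WT library, WT 2, at 2.53 CPM. In WT 2, 3 counts stand for 1.27 CPM, so the muscle values rest on few counts and their gap is within counting error. Schwann cell markers summed to a mean of 385 CPM, the lowest line being at 209.6 CPM and the highest WT library at 184 CPM. The last 2 lists were above every WT library in Tumor 1, 3 and 4 too. Muscle markers summed to 4.23, 7.25 and 6.36 CPM there and Schwann cell markers to 466, 512 and 321 CPM.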

How the results depend on the processing

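Several alternatives moved counts of calls by more than 1.5 times. Without a filter on low counts 545 higher genes were absent from culture, and with a minimum of 10 counts in every Tumor and WT library 308 genes were higher and 141 lower, all expressed in WT, so that no gene absent from culture was left to test. With only the Tumor and WT libraries in the fit 170 genes absent from culture were called. By adjusted p alone 1035 genes were lower, and 927 of the genes expressed in WT were higher and 980 lower. Tested against a log2 fold change of 1 with glmTreat, 805 genes were higher and 61 lower, of which 139 and 49 were expressed in WT. With absence from culture defined by WT alone, 485 higher genes were in that class, and with WT 1 and WT 2 as controls 211 genes were lower. When 1 library was left out, 954 to 1559 genes were higher, 211 to 408 lower, 231 to 383 higher and absent from culture, 333 to 539 higher and expressed in WT and 198 to 322 lower and expressed in WT. The DESeq2, size factor and library size fits kept each of these 5 counts within 1.5 times. The cause of these moves was not tested beyond the construction of each alternative.

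Same-numbered WT and Tumor libraries, which share no stated animal or batch, had deviations correlated at 0.06 (number 1) and -0.01 (number 3). With the replicate block 204 genes were lower and 203 higher genes were absent from culture.

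Genes that changed sign were not called with all libraries. With WT 1 and WT 2 as the controls Anxa2 was 0.10, Asns -0.28, Dusp2 0.12, Erbb3 0.065, Hspa5 -0.051, Ifit3 2.13, Isg15 1.57, Mx1 2.21, Serpinh1 -0.015, Sox9 -0.056 and Sparc 0.25. With WT 3 alone as the control, chosen after seeing the data Ddit3 was 1.27, Hmox1 0.16, Jak1 -0.19, Myh9 -0.065, Nfkb2 -0.13, Psat1 0.46, Rhoa -0.30 and Sox10 -0.043. With DESeq2 Dusp2 was 0.015 and Mx1 0.12. With a minimum of 10 counts per library Dusp2 was 0.00051. With the replicate block Dusp2 was 0.12, Erbb3 0.20, Ngfr -0.44, Psat1 0.046, Sox10 -0.031 and Sparc 0.092. With library size as the only scaling Nfkb2 was -0.062, Rhoa -0.056 and Sox10 -0.066. Without a filter on low counts Nfkb2 was -0.039, Rhoa -0.039 and Sox10 -0.043. Over the fits that left out 1 library the log2 fold changes of such genes were Anxa2 -0.64 to 0.10, Asns -0.28 to 1.47, Axin2 -0.38 to 0.062, Ddit3 -0.53 to 1.40, Dusp2 -0.20 to 0.12, Erbb3 -0.41 to 0.10, Hmox1 -2.12 to 0.42, Hspa5 -0.051 to 0.68, Ifit3 -1.55 to 2.13, Isg15 -1.23 to 1.57, Mx1 -0.50 to 2.21, Nfkb2 -0.095 to 0.091, Psat1 -0.29 to 0.25, Rhoa -0.19 to 0.18, Serpinh1 -0.053 to 0.19, Sox10 -0.051 to 0.033, Sox9 -0.056 to 0.77 and Sparc -0.42 to 0.25. Depth limits the low genes, since 3 counts are 1.698 CPM in WT 1.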
